A study of Caenorhabditis elegans with 2 samples.

Results

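Among the 3000 regions of highest ChIP-seq signal for the forkhead protein FKH-3 in *Caenorhabditis elegans*, 449 (15%) had their summit in intergenic sequence away from promoters and small RNA genes. They were selected on the pooled signal of the 2 replicates, from a list of 30000 regions, and on position. The summit had to lie in no annotated gene of any kind, outside the window from 500 bp upstream to 100 bp downstream of any protein-coding transcript start, and over 100 bp from any tRNA, snoRNA or snRNA gene. Of the 3000, 2266 had the summit inside a gene, 217 others had it in a promoter window, and 68 outside both had it near a small RNA gene. The signal is the authors' score, of unknown scale, and served only to rank regions within a list. The intergenic regions nearest the limit were those of rank 2994 near *F45D3.1* and rank 2997 near *C05C8.7*, with scores of 75.15 and 75.14, and just outside it those of rank 3013 near *CC8.3* and rank 3017 near *T26E3.7*, with scores of 75.04 and 75.

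All worms were of strain OP594, genotype unc-119(tm4063) III with the integrated transgene wgIs594, which expresses FKH-3 with GFP-FLAG at its C terminus. They were young adults of mixed sex, harvested 63 h after release from L1 starvation, and chromatin of whole animals was precipitated with an antibody against GFP, though the antibody field of the labels names fkh-3. There was 1 group with 2 biological replicates. No condition was therefore compared with another, the matched control was not analysed here, and signal from different tissues of the animal cannot be told apart. The lists hold no read counts, so sequencing depth is unknown. Intervals are exact 95% binomial intervals and cover counting error of regions only. Regions are not replicates of an animal, and 18 of the 449 overlapped another of them, so no test was made over regions.

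Forkhead proteins bind DNA through a winged-helix domain, and many members of the family recognise sites related to TAAACA. In the compact genome of *C. elegans* the promoter usually lies close upstream of its gene. Sequence that is neither gene nor promoter can hold distant enhancers, the stretches just past the 3′ ends of genes, where RNA polymerase II terminates, and decayed copies of repeats and RNA genes.

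The sequences at 4 of the strongest regions show what kind of DNA this is. Each shows the summit with 50 bp on each side, on ce11 (WBcel235), from the RefSeq genome. Capitals mark GAGAGA or TATAAA on either strand, and in the *xbp-1* region the forkhead motif RTAAAYA as well. In that motif R stands for a purine and Y for a pyrimidine.
Region of rank 16, past the 3′ end of cgh-1, chrIII:7495016-7495116, plus strand: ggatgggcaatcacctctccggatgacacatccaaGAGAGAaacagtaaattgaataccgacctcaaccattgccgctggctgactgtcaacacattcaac
Region of rank 62, past the 3′ end of lgg-1, chrII:6346659-6346759, plus strand: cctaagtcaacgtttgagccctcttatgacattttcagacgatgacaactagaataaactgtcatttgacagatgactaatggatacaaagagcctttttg
Region of rank 89, past the 3′ end of xbp-1, chrIII:4195447-4195547, plus strand: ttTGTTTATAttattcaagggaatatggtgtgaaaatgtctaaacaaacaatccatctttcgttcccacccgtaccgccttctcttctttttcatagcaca
Region of rank 80, beside ins-13, chrII:5543809-5543909, plus strand: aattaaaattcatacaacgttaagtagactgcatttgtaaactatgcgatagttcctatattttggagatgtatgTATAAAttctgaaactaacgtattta
Neither of the regions past *cgh-1* and *lgg-1* held the forkhead motif in these stretches. The region past *xbp-1* held RTAAAYA, on the minus strand, 45 bp from the summit. It also held TAAACA on the plus strand, nearer the summit. That site is not in capitals, because the base before it is C and RTAAAYA needs a purine there.

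A further 3 of the 25 strongest regions resembled one another and a tRNA pseudogene. They are shown over the stretch that matched it, with capitals at GTTCAATCC, which resembles the B box, an element inside tRNA genes that recruits RNA polymerase III factors.
Region of rank 52, beside F09E5.7, chrII:5353817-5353885, minus strand: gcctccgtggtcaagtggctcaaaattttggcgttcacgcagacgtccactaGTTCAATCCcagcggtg
Region of rank 87, beside C14C11.7, chrV:5667468-5667529, minus strand: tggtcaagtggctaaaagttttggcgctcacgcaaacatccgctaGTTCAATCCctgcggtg
Region of rank 135, beside vps-37, chrV:5592083-5592143, plus strand: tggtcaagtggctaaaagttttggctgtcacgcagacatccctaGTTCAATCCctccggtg
tRNA pseudogene WBGene00023324, chrII:6358367-6358438, minus strand: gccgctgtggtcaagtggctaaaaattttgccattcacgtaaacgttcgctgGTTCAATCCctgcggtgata
The region of rank 52 was identical to the pseudogene at 58 of 69 aligned positions (84.1%), that of rank 87 at 54 of 62 (87.1%) and that of rank 135 at 51 of 62 (82.3%). GTTCAATCC stood in all 3 and in the pseudogene.

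The strict forkhead motif GTAAACA occurred within 100 bp of the summit in 8 of the 449 regions. The windows of 3 of them are shown, with 100 bp on each side of the summit and with GTAAACA and TATAAA on either strand in capitals.
Region of rank 401, beside W05H9.4, chrX:6253903-6254103, plus strand: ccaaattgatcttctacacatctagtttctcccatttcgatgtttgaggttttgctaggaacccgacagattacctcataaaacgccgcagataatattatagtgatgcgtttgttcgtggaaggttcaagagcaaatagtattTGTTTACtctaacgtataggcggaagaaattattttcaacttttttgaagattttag
Region of rank 871, beside gpcp-1, chrX:3111860-3112060, plus strand: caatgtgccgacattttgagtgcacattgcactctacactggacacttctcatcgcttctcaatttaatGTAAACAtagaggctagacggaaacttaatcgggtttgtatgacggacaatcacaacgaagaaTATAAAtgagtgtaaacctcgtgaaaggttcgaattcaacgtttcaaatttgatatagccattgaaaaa
Region of rank 1039, beside F53C3.1, chrII:3917053-3917253, plus strand: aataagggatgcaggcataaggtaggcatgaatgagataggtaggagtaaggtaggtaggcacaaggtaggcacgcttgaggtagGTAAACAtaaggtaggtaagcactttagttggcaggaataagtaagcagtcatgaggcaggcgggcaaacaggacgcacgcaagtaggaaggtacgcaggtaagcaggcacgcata
The motif lay 47, 28 and 12 bp from the summit in these regions. In another of the 8, of rank 572 and nearest *C01B9.4*, whose window is not shown, it lay 88 bp away. The region beside *gpcp-1* had its summit 131 bp past the 3′ end of *gpd-3*, a glyceraldehyde-3-phosphate dehydrogenase gene.

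The replicates ranked these regions unevenly. In the list of 441 regions that passed the irreproducible discovery rate (IDR) threshold of the authors, 64 of the 449 were found (14.3%, interval 11.2 to 17.8%), against 14.7% of all 3000 strong regions, 12.5% of 512 strong promoter regions and 6.02% of 532 strong intronic ones. Among the highest 3000 of both replicates were 133 (29.6%, 25.4 to 34.1%), against 31.4% of all 3000, 30.3% of the promoter and 24.6% of the intronic ones. Both shares are close to those of all 3000 and above those of strong intronic regions. Because the pooled signal that chose the regions was made from these replicates, the ranks are a description. The 441 regions of the IDR list were those of highest pooled signal. Being in that list therefore restates pooled rank and is no separate check of agreement between the replicates.

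The 449 regions stood higher in replicate 2 than in replicate 1. Their median rank was 3279 in replicate 1, over the 423 with a region there, and 1757 in replicate 2, over 443. In replicate 1, 207 (46.1%) were among the highest 3000, against 49% of all 3000 strong regions. In replicate 2, 311 (69.3%) were, against 70.1%. Only replicate 2 held 178 among its highest 3000, only replicate 1 held 74, and 64 (14.3%) were in neither, against 12.4% of all 3000. Strong promoter regions leaned the same way, with median ranks of 2985 in replicate 1 and 1643 in replicate 2. So did all 3000, with 2713 and 1716.5, and the lean is thus not particular to the intergenic regions.

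Sharing between replicates fell steeply with pooled rank. Of the 64 regions in the IDR list, 54 (84.4%) were among the highest 3000 of both replicates. Of the next 153, down to rank 1500, 70 (45.8%) were, and of the 232 below that, 9 (3.88%) were. Of those 232, 28.4% were among the highest 3000 of replicate 1 and 48.3% among those of replicate 2. The widest gaps were at the regions nearest *nlp-6* (rank 29490 in replicate 1, 1085 in replicate 2), *oac-9* (26895 and 186) and *sym-3* (26140 and 1856), and in the other direction nearest *Y57G11C.38* (113 and 28504), *rga-2* (401 and 23660) and *mak-1* (37 and 21909). Their pooled ranks, from 587 to 2751, put all 6 outside the IDR list.

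**Figure D1:**
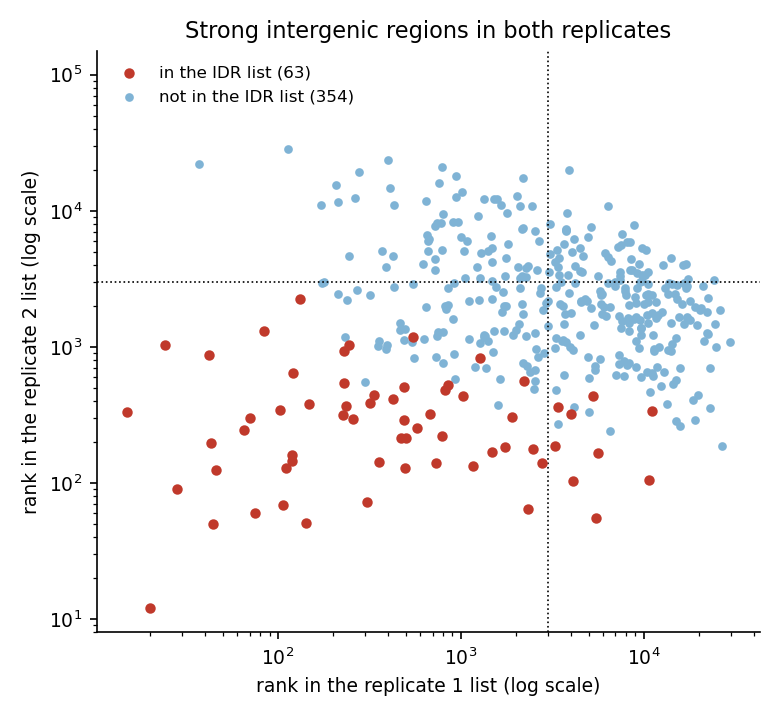
Rank of each strong intergenic region in the replicate 1 list (horizontal) and the replicate 2 list (vertical), both on log scales, for the 417 regions with a counterpart in both; dotted lines mark rank 3000. Of the 63 regions in the IDR list plotted here, 54 lie within rank 3000 in both replicates, at the lower left. The 354 others spread more widely, and some of them lie there too.

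The clearest positional feature was closeness to the 3′ ends of protein-coding genes. Of the 449 summits, 186 (41.4%, 36.8 to 46.1%) lay within 500 bp past a 3′ end, against 1100 of 4692 weaker intergenic regions chosen by the same position rule (23.4%, 22.2 to 24.7%) and 15.7% of the bases the rule allows. Within 200 bp the shares were 20.3% of the strong regions, 10.8% of the weaker ones and 7.65% of allowed bases. The excess was widest between 100 and 200 bp, with 12.7% of the strong regions, 5.71% of the weaker ones and 3.54% of allowed bases. Beyond 500 bp it was gone: from 500 to 1000 bp the shares were 7.35% of the strong regions, 9.04% of the weaker ones and 8.87% of allowed bases. This measure was not planned and was picked once the positions had been examined.

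**Figure D2:**
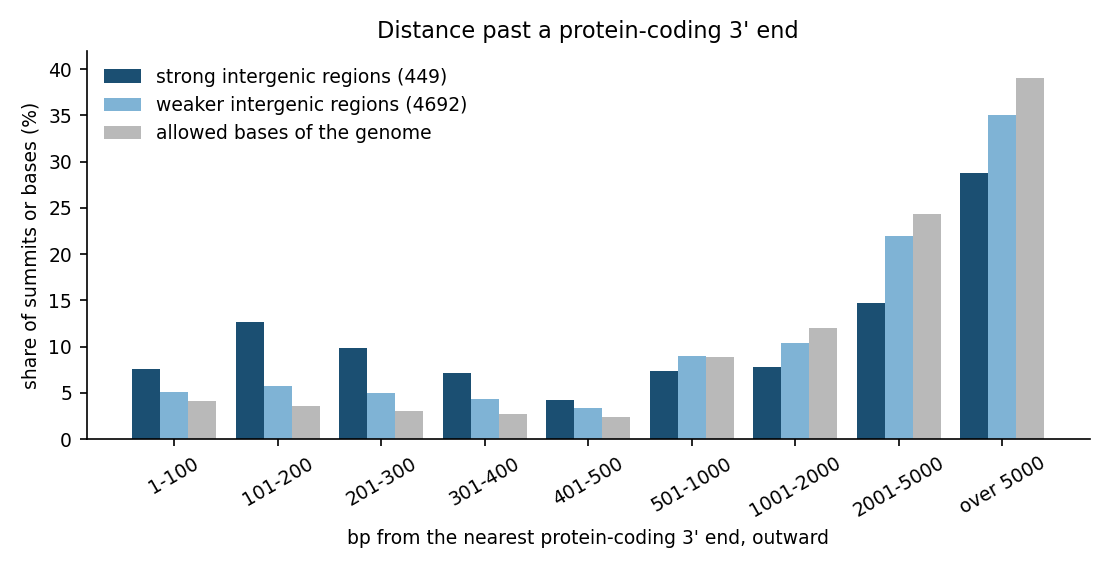
Share of summits or bases (vertical, %) by distance outward from the nearest protein-coding 3′ end (horizontal, bp), for strong intergenic regions, weaker intergenic regions and the bases that the position rule allows. The strong regions exceed both others in each bin up to 500 bp, most at 100 to 200 bp (12.7%, 5.71% and 3.54%), and lie below both beyond 500 bp.

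The share was larger at higher signal. Among the 64 strong intergenic regions of the IDR list, 40 lay within 500 bp past a 3′ end (62.5%, 49.5 to 74.3%). It was 41.2% (33.3 to 49.4%) for the next 153 and 35.8% (29.6 to 42.3%) for the 232 below rank 1500. Of the 133 regions among the highest 3000 of both replicates, 66 (49.6%, 40.8 to 58.4%) lay there, and of the other 316, 120 (38%, 32.6 to 43.6%). Chosen from replicate 1 alone, 37.8% of 442 strong intergenic regions lay within 500 bp past a 3′ end, against 21.9% of weaker ones, and from replicate 2 alone 37.9% of 446, against 23.7%. The difference was thus present in each replicate list. The pooled list, on which the measure was picked, was made from these replicates, so this is no independent check.

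The share depends on how the intergenic boundary is drawn. When the whole region, and not only its summit, had to lie outside genes, 313 strong regions were left, and 27.8% of them lay within 500 bp past a 3′ end, against 15% of 3745 weaker ones. The stricter rule takes the summits nearest a gene out of both sets.

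**Figure D3:**
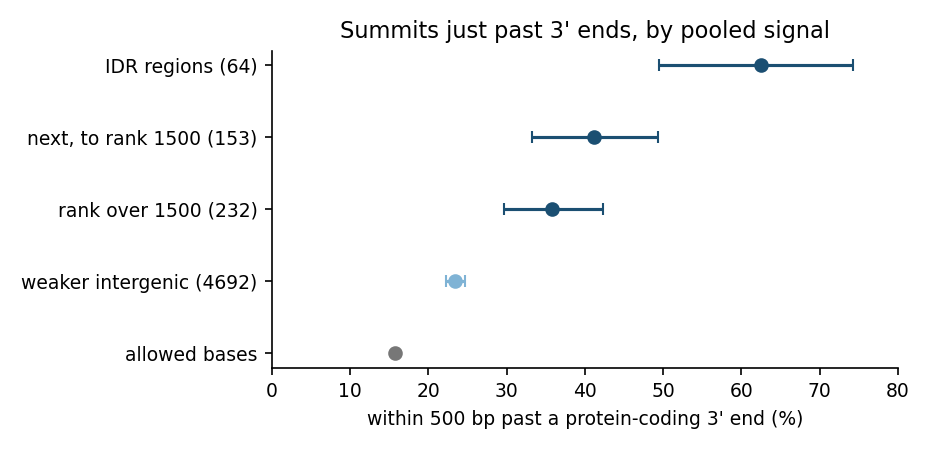
Share of summits within 500 bp past a protein-coding 3′ end (horizontal, %), for strong intergenic regions in the IDR list, those after them to rank 1500 and those below, for weaker intergenic regions and for allowed bases. Points are shares and bars exact 95% intervals (allowed bases are a count of the genome with none). The share goes down with signal: 62.5%, 41.2%, 35.8%, 23.4% and 15.7%.

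Of the 25 strong intergenic regions of highest signal, 16 had their summit within 500 bp past a 3′ end. The highest of all (III, 7494970 to 7495138, pooled rank 16, ranks 20 and 12 in replicates 1 and 2) lay 254 bp past *cgh-1*, which encodes a germline RNA helicase, and 22 bp from the ncRNA gene *C07H6.15*. Next to it in rank came a region 167 bp past *F09E5.7* (rank 52, with 75 and 60 in the replicates). The third, of rank 58 (44 and 50), lay 125 bp past *atp-1*, a subunit of the mitochondrial ATP synthase, in a gap of 358 bp between *atp-1* and *T26E3.7*, whose 3′ ends face each other. The region of rank 3017, just outside the limit, lies in the same gap.

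The mitochondrial chaperonin gene *hsp-60* had a summit 30 bp past its end, with rank 61 (28 in replicate 1 and 91 in replicate 2). At *lgg-1*, the autophagy gene related to yeast ATG8, the distance was 251 bp (rank 62, with 15 and 331 in the replicates). At *xbp-1*, a transcription factor of the unfolded protein response, it was 139 bp (rank 89, with 110 and 130). These 3 regions were thus high in both replicates.

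Topoisomerase II gene *top-2* had its summit 156 bp past the end (rank 115, with 120 and 146 in the replicates). The region past *rps-6*, for a protein of the small ribosomal subunit, lay at 219 bp (rank 134, with 119 and 161), and that past the HMG-box gene *hmg-1.1* at 140 bp (rank 197, with 103 and 347). At *vha-12*, a subunit of the vacuolar proton pump, it lay at 100 bp (rank 183, with 486 and 289). At *hrde-1*, a nuclear Argonaute of the germline, it lay at 31 bp in a gap of 113 bp (rank 204, with 499 and 214). At *ftt-2*, a 14-3-3 protein, the replicates differed more (261 bp, rank 147, with 2334 and 64). The remaining 4 of the 16 lay past *Y22D7AL.10* (317 bp), *F21D12.3* (107 bp), *CD4.11* (383 bp) and *T28H10.2* (473 bp).

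The other 9 of the 25 were spread over other settings. Summits 653 bp past *ins-13*, an insulin-like gene (rank 80), and 635 bp past *glp-4*, a valyl-tRNA synthetase gene (rank 83), were just beyond the 500 bp. The region nearest *nas-30*, an astacin protease gene, lay 5007 bp upstream of its start in a divergent gap (rank 97, with 46 and 125 in the replicates). The regions upstream of *zfr-1* by 1216 bp (rank 148) and of the histone acetyltransferase gene *cbp-1* by 916 bp (rank 178) were also in divergent gaps. Those nearest the starts of *C14C11.7*, *W02H3.3*, *C33H5.16* and *Y49G5A.1* completed the list.

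Ribosomal and heat shock protein genes, taken by symbol (rpl- or rps-, and hsp-), recurred beside these regions, mostly at their 3′ ends. Genes of these kinds under other names were not counted. Of the 449 regions, 7 (1.56%) had a ribosomal protein gene beside them, against 23 of 4692 weaker ones (0.49%). In 6 of the 7 the summit lay 70 to 318 bp past the 3′ end of that gene: *rps-17* at 70 bp, *rps-13* at 75, *rps-2* at 157, *rps-15* at 203, *rps-6* at 219 and *rps-27* at 318. Of these 6, only the regions at *rps-6* and *rps-27* were in the IDR list. In replicates 1 and 2 the *rps-2* region ranked 749 and 1278, and the *rps-13* region 19070 and 292. The seventh lay on the 5′ side of *rps-11*. Among the weaker regions, 12 of 23 lay within 500 bp past the ribosomal gene. Heat shock genes with hsp- symbols stood beside 3 strong regions (0.668%), against 7 weaker ones (0.149%), of which 1 lay past the end. The 3 were at *hsp-60* (30 bp past the end), *hsp-6* (161 bp) and *hsp-3* (114 bp). These counts are small, and the families were listed with earlier results of these data known.

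The other families were also taken by gene symbol and counted in the same way, so relatives under other names were not counted. Chemoreceptor genes, the largest family of the list, stood beside 23 strong regions (5.12%), against 237 weaker ones (5.05%), and 4 of the 23 lay within 500 bp past the receptor gene, against 59 of the 237. The 4 were at *srg-58* (342 bp), *srw-119* (295 bp), *srt-22* (314 bp) and *srab-6* (397 bp). Neuropeptide genes stood beside 12 (2.67%), against 2.17% of the weaker regions, with *nlp-40* (183 bp past the end, rank 241) and *ins-13* among them, and 4 of the 12 lay within 500 bp past the neuropeptide gene, against 11 of 102. Nuclear hormone receptor genes with nhr- symbols stood beside 8 (1.78%), against 3.28%. Of the 8, 3 lay within 500 bp past the receptor gene, against 17 of 154. Of a short list of 18 small RNA factors, mostly Argonautes, only *hrde-1* stood beside a strong region, 1 in number and past its 3′ end. Beside the listed factors were 11 weaker regions, with none past the gene. Other genes of small RNA pathways were not in the list. These differences were not tested. Genes with col-, dpy-, rol-, sqt- or bli- symbols stood beside 8 (1.78%), against 1.49%. Of the 8, 0 lay within 500 bp past such a gene, against 8 of 70. This set was meant for collagen and cuticle genes but rests on symbols only, and it includes *dpy-23*. Homeobox genes with ceh- symbols and the Hox genes stood beside 3 (0.668%), against 1.21%. Homeobox genes under other names were not in this count. Histone, major sperm protein, vitellogenin and tubulin or actin genes stood beside none of the 449, against 15, 9, 2 and 8 weaker regions.

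Convergent gaps held a larger share of the strong regions than of the weaker ones, and divergent gaps a smaller one. Between the nearest protein-coding gene on each side, 91 strong regions lay in convergent gaps, where both genes point inward (20.3%, 16.6 to 24.3%), against 13.8% of weaker regions and 12.8% of allowed bases. In divergent gaps lay 98 (21.8%, 18.1 to 25.9%), against 29% of weaker regions and 33% of allowed bases. Tandem gaps held 57.9% of the strong regions, 57.1% of the weaker ones and 54.2% of allowed bases. With the whole region outside genes the convergent share was 10.9%, against 10.7% of the weaker regions, so the convergent difference did not hold under that rule; the divergent share was then 27.2%, against 31.5%.

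The excess past 3′ ends was also present within gap types. In convergent gaps 75 of 91 strong summits lay within 500 bp past a 3′ end (82.4%, 73 to 89.6%), against 60.6% of weaker ones. In tandem gaps 111 of 260 did (42.7%, 36.6 to 49%), against 26.3%. The convergent gaps that held strong regions were shorter, with a median of 1004 bp against 2379 bp for those of weaker regions, and the part of gap length in the difference was not tested. Over all types the median gap was 5037 bp for strong regions and 5976 bp for weaker ones.

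The distance to transcript starts differed little from that of weaker regions. The median from summit to the nearest protein-coding start was 1838 bp (260 to 11602 bp), against 2087.5 bp for weaker regions. Within 1000 bp of a start lay 24.1%, against 20.8% of weaker regions, and over 5000 bp away lay 10%, against 14.4%. The lower limit is set by the promoter window. The 5 farthest were near *K01F9.2* (11602 bp), *lelo-2* (11383 and 9612 bp, a pair of regions in 1 gap), *svh-5* (10652 bp, in a divergent gap of 30106 bp) and *W05H9.4* (9645 bp). Of these the *W05H9.4* region, of rank 401 with 425 and 415 in the replicates, was in the IDR list.

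Of the 416 gaps that held a strong intergenic region, 30 held more than 1, with 63 regions between them. The gap between *fkh-2*, itself a forkhead gene, and *T14G12.12* on X, of 14567 bp, held 4, of ranks 377, 2446, 2600 and 2672. They lay 4954 and 7550 bp upstream of the *fkh-2* start and, for the others, nearer the start of *T14G12.12*, 5045 and 5883 bp downstream of it. The highest of them was in the IDR list, at ranks 132 in replicate 1 and 2244 in replicate 2. All 4 of the strong regions beside forkhead genes (0.891%) were in this gap, against 27 weaker regions beside forkhead genes (0.575%). The gap between *got-2.2* and *W05H9.4*, also on X, held 3 within 1857 bp, of ranks 401, 818 and 1084.

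No strong intergenic region lay within 40 kb of *fkh-3*, its neighbour *fkh-4*, the related gene *fkh-5* or *unc-119*, which is mutated in the strain. With 449 regions in the genome few would be found in windows of that size, so the absence says little.

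The share on chromosome arms, the outer parts where recombination is frequent, was close to that of the sequence available. Arms, taken as the outer 30% at each end, held 272 of 449 strong regions (60.6%, 55.9 to 65.1%), against 65% of weaker regions (63.6 to 66.3%) and 60.8% of allowed bases. On autosomes the shares were 58.8% for strong regions, 64.1% for weaker ones and 60.4% for allowed bases, and on X 66.1%, 67.5% and 62.1%. The widest spread was on IV, with 54.3% of 70 strong regions (41.9 to 66.3%), 66.8% of weaker ones and 64.5% of bases. Strong regions past a 3′ end were on arms in 54.3% (46.9 to 61.6%) and the other strong regions in 65% (58.9 to 70.8%).

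By chromosome, X held 109 strong regions (24.3%, 20.4 to 28.5%), against 26% of weaker regions and 23.3% of allowed bases. Density was highest on I, at 23 per Mb of allowed sequence, and lowest on IV, at 13.8, with 17.2 over the genome. The weaker regions were densest on III (203 per Mb) and sparsest on IV (125 per Mb). X contributed unevenly to the 3′ end regions: it held 12.4% (8 to 18%) of the strong regions within 500 bp past a 3′ end and 32.7% (27.1 to 38.7%) of the others, against 15.5% and 29.2% among weaker regions.

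**Figure D4:**
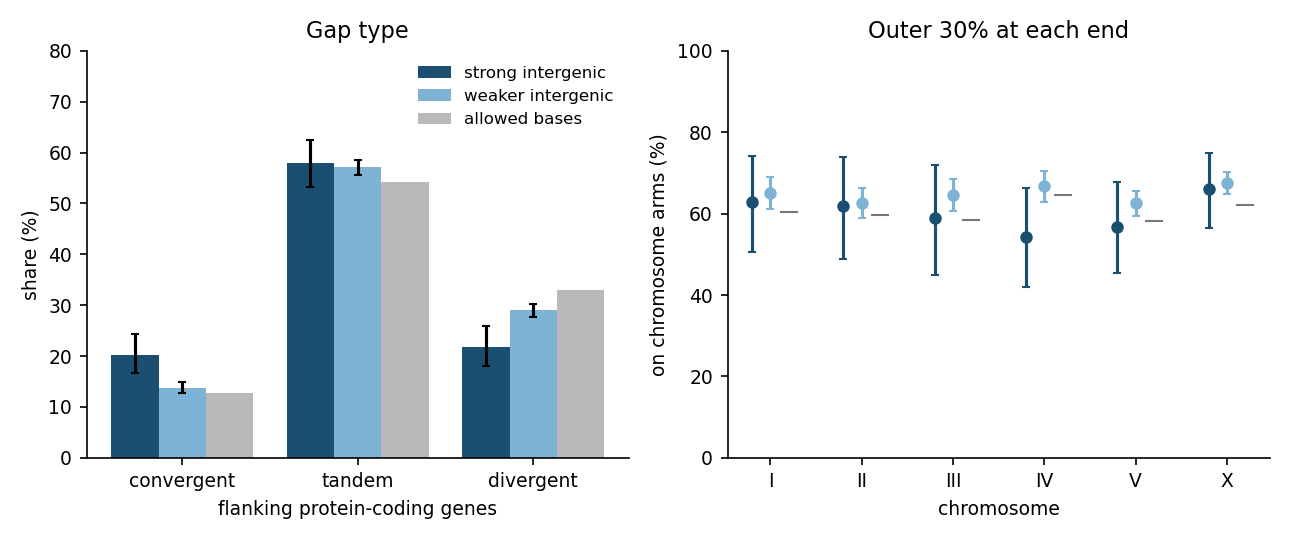
Left, share (%) of strong intergenic regions, weaker intergenic regions and allowed bases in gaps between convergent, tandem and divergent genes. Right, share (%) on chromosome arms for each chromosome, with dashes for allowed bases; bars are exact 95% intervals. The strong regions exceed the weaker ones in convergent gaps (20.3% and 13.8%), while the arm intervals of strong regions include the share of allowed bases on every chromosome.

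The sequence at the summits was richer in GC than intergenic sequence at large. Median GC content within 100 bp was 43.3% at strong regions, 39.8% at weaker ones and 32.8% in 52262 windows spaced every 500 bp over allowed bases. The same median, 43.3%, was found at strong promoter regions. Strong regions past a 3′ end had a lower median (40.3%) than the other strong regions (45.8%), as was also so for the weaker ones (37.3% and 40.8%). Repeats were about as common as at weaker intergenic regions and more common than at strong promoter regions. Words of 36 bases that recur in the genome were present in 15.4% of strong intergenic windows and 17.4% of weaker ones, against 15.8% of all 3000 strong regions, 6.45% of strong promoter regions and 11.8% of all pooled regions. Over 50% soft-masked, the mark of repeats in the reference, were 16.9% of strong intergenic windows and 18% of weaker ones, against 7.5% of all strong, 9.38% of strong promoter and 10.7% of all pooled regions. The median soft-masked share was 22.4% at strong intergenic regions and 23.9% at weaker ones. Both were below the 38.8% of the windows over allowed bases.

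The forkhead motif was close to its frequency in the rest of the list. RTAAAYA occurred within 100 bp of 65 of 449 strong summits on either strand (14.5%, 11.4 to 18.1%), against 16.5% of weaker ones and 21.5% of the windows over allowed bases. It was in 15.6% of strong promoter regions, 12.8% of strong intronic ones, 12.2% of all 3000 strong regions and 13.7% of all 30000 pooled regions. GTAAACA, which RTAAAYA includes, occurred in 8 (1.78%, 0.772 to 3.48%), against 2.9% of weaker regions, 2.8% of windows and 2.14% of all pooled regions. The motif is rich in A and T and the strong summits were richer in GC, and the part of base composition in these shares was not tested. In the IDR list 14.1% (6.64 to 25%) of the 64 regions held RTAAAYA.

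Of the other short words, 3 had higher shares than at weaker intergenic regions, but not in every case than at other strong regions. ATGCGC occurred at 37 strong summits (8.24%, 5.87 to 11.2%), against 4.69% of weaker ones, 2.82% of windows and 4.3% of all pooled regions, with 6.45% of strong promoter and 7.33% of strong intronic regions. In the IDR list it was at 11 of 64 (17.2%, 8.9 to 28.7%), among them the regions nearest *cgh-1*, *F09E5.7*, *nas-30* and *rps-27* and the *T14G12.12* region in the *fkh-2* gap. It was at 7 of the next 153 (4.58%) and at 19 of the 232 below rank 1500 (8.19%), so the share did not follow signal throughout. From replicate 1 alone the share was 7.01%, against 4.75% of weaker regions, and from replicate 2 alone 7.85%, against 4.59%. CGCGCA, whose reverse complement overlaps ATGCGC by 5 bases, was at 8.02% of strong intergenic summits, 6.18% of weaker ones and 4.77% of all pooled regions, and at 13.3% of strong promoter and 9.59% of strong intronic regions. Both words were picked from an earlier search of these same regions, so their shares are no independent evidence. GAGAGA was at 20.5% of strong intergenic summits, 16.9% of weaker ones and 14.5% of all pooled regions, and at 23% of strong promoter and 16.7% of strong intronic regions. TATAAA, which can overlap RTAAAYA, was at 16.3% of strong intergenic summits, 16.8% of weaker ones and 14.2% of all pooled regions.

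**Figure D5:**
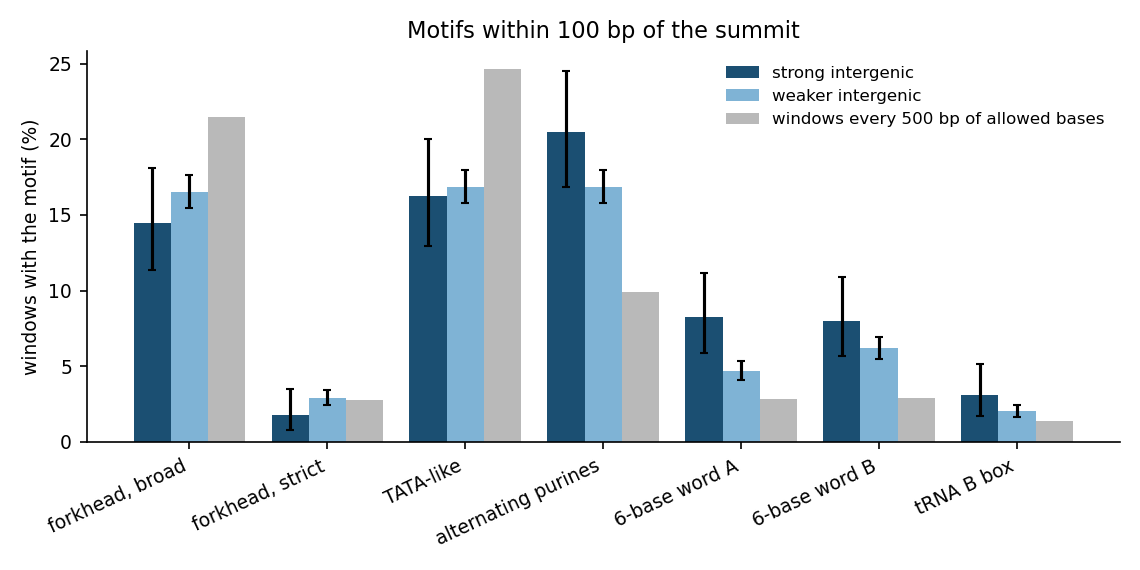
Share of windows (vertical, %) with each motif within 100 bp of the summit, on either strand, for strong intergenic regions, weaker intergenic regions and windows spaced over allowed bases; bars are exact 95% intervals. The forkhead motifs are RTAAAYA (broad) and GTAAACA (strict), alternating purines stand for GAGAGA, words A and B for ATGCGC and CGCGCA, and the tRNA B box for GTTCGANNC. Of the 3 sets shown, the broad forkhead motif is lowest at strong regions (14.5%, 16.5% and 21.5%).

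A few summits lay in sequence resembling tRNA genes, although annotated tRNA genes were left out by the rule. The B box GTTCGANNC was at 14 strong summits (3.12%, 1.71 to 5.18%), against 2.02% of weaker ones, 1.41% of windows and 2.93% of all pooled regions. The looser GWTCRANNC, where W is a base of weak pairing, adenine or thymine, and which includes it, was at 10.2%, 7.74% and 6.67% of the same sets and at 10.3% of all pooled regions. A match of 50 bp or more to an annotated tRNA gene or tRNA pseudogene elsewhere in the genome was found in the windows of 9 strong regions (2%, 0.921 to 3.77%), against 48 weaker ones (1.02%, 0.755 to 1.35%). In all 9 the best match was a tRNA pseudogene, and 4 of them were among the 64 regions of the IDR list (6.25%, 1.73 to 15.2%). The regions of ranks 52, 87 and 135, whose sequences are given above, were the highest; that of rank 135 ranked 55 in replicate 2 and 5457 in replicate 1. The other 6 were nearest *srx-28* (rank 380), *ckr-2* (454), *Y82E9BL.1* (1513), *egl-2* (1731), *nlp-49* (2403) and *rog-1* (2478). The looser motif and this search were added once the sequences had been examined.

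A small RNA gene between 100 and 500 bp away, just beyond the limit of the rule, was found for 9 strong regions (2%, 0.921 to 3.77%), against 1.17% of weaker ones. The *ins-13* region of rank 80 lay 152 bp from *sls-2.2* and that of rank 2553 lay 106 bp from *sls-2.3*, both genes for spliced-leader RNA, which is joined to the 5′ ends of messenger RNAs. The region past *rps-13* lay 393 bp from the snoRNA gene *C16A3.11*. Without the 9, 440 regions were left, and the share past a 3′ end was 41.4%.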

How the data were processed

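FKH-3 ChIP-seq region lists of 2 replicates, on ce11, were used as the authors deposited them. The deposited signal is a score of unstated scale and the deposited q-values are −log10 values, which were not used in any result. For the aligner and the peak caller, names are not given in sources used here. Each list held 30000 regions, peaks together with background, with median widths of 390 bp in the pooled list, 364 bp for replicate 1 and 400 bp for replicate 2. The lists on ce10 were not used here.

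Summits were placed on the Ensembl annotation (release 115) of WBcel235, which is ce11, with sequence from RefSeq. A summit was past a 3′ end when it lay outward of a protein-coding gene's end. Weaker intergenic regions are those of the pooled list below rank 3000 that pass the same position rule, and allowed bases (26133068 bp, 26.1% of the genome) are all that pass it. A strong region counted as shared when its summit lay in a region of the replicate. Matches to tRNA genes were made with BLAST+ 2.17.0 (word size 7, expect value 0.001, own locus left out). Other steps ran in Python 3.11.15 with pandas 2.3.3, numpy 2.4.6, scipy 1.17.1 and matplotlib 3.10.9, and the procedures were tested on simulated data.

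No test was run: with 1 group there is no comparison of conditions. The regions and lists were chosen with earlier results of these data known. Genes named are those of the 25 regions of highest signal, those at the limit, the 5 farthest from a start, the 3 of largest rank difference in each direction, up to 4 per family and those sharing a gap with at least 2 others; further ones, such as those with ATGCGC, tRNA-like sequence or a small RNA gene within 500 bp and all the ribosomal ones, were named after their values were seen. Sequences shown are a part of those of highest signal and of those with GTAAACA. Sequence of chromosomes other than II, III, V and X is not shown here.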

Additional observations from a re-analysis of the deposited data

How the results depend on the processing

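No paired analysis was possible because the study has 1 group. The measure past 3′ ends and its settings were added once the positions had been examined. The cause was not tested for any of these changes, beyond what each rule leaves out. With the highest 1500 regions there were 217, and with the highest 6000 there were 921; the share among the highest 3000 of both replicates was then 57.1% and 14.8%, the share past a 3′ end 47.5% and 36%, and the median start distance 1888 and 1966 bp. The highest 1500 had 24.4% in convergent gaps and a median GC content of 43.8%. With the whole region outside genes, 40 were in the IDR list, 27.8% lay past a 3′ end, 10.9% were in convergent gaps, the start distance was 1894 bp and GC content 44.3%. The wider promoter window gave 2213 bp and 24.4% convergent, and counting only protein-coding genes gave 1957 bp and GC content 43.8%. Leaving out each replicate gave 1939 to 1998 bp and a GC content of 42.8 to 43.3%. Arms of 25% held 52.1%. Within 50 bp, GC content was 44.6% and RTAAAYA was at 6.68%. With GTAAACA in place of RTAAAYA, within 100 bp, the share was 1.78%. Past a 3′ end the share was 20.3% within 200 bp and 49.6% for regions among the highest 3000 of both replicates. Depth is unknown, so what it limits could not be measured.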
